A study of Mus musculus with 21 samples.

Results

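The signalling axis of the erythropoietin receptor was followed in 2 cell types of the mouse bone marrow, the hematopoietic stem cell (HSC) and the progenitor of megakaryocytes and erythroid cells (MEP), both sorted by flow cytometry. Its 10 genes were taken by Entrez identifier from a table of 30519 genes: the receptor Epor (13857), the kinase Jak2 (16452), the transcription factors Stat5a (20850) and Stat5b (20851), the feedback inhibitors Cish (12700), Socs2 (216233) and Socs3 (12702), the kinases Pim1 (18712) and Pim2 (18715), and the survival gene Bcl2l1 (12048). Low-input RNA sequencing had been done on 21 libraries in 8 groups, each a cell type combined with an Etv6 genotype. Etv6 encodes a repressor of the ETS family that hematopoietic stem cells need, and its genotypes were S211I, P216L, both substitutions together (the double mutant) and wild type (WT). Each group held n = 3 libraries, except MEP S211I, HSC S211I and MEP WT with n = 2. The genotype field writes P211I where the titles write S211I, and the title form is used here. The labels name no treatment, and they state neither age, sex and strain nor how many copies of Etv6 carry a substitution. They do not say whether libraries came from separate animals, so the p-values measure the spread between libraries, which may be technical.

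Erythropoietin binds the Epor dimer on erythroid progenitors and activates Jak2, which is held on the receptor's cytoplasmic tail. Jak2 phosphorylates the receptor and then Stat5a and Stat5b, which enter the nucleus and turn on Cish, Socs2, Pim1 and Bcl2l1 among others. Cish and the Socs proteins bind the activated receptor or Jak2 and dampen the signal, while Pim kinases and the Bcl2l1 product Bcl-xL keep erythroid cells alive. The same kinase and Stat5 also serve other cytokine receptors.

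Depth set what could be seen in each cell type. The MEP libraries held 3387389 to 12130358 counts, and 10 of the 11 HSC libraries held 151216 to 2250654, so that 3 counts stand for 0.247 to 0.886 counts per 1000000 in the library (CPM) in MEP and for 1.33 to 19.8 CPM in those HSC libraries. The library labelled HSC S211I replicate 2 stood apart, with 13154016 counts. Its log2 profile over 11334 genes had a Pearson correlation of 0.978 with the MEP mean. The 10 remaining HSC profiles gave 0.371 to 0.704, and each MEP profile gave 0.98 to 0.992 with the mean of the rest of MEP. It had counts for 9 of 10 stem cell markers. Their sum was 124.6 CPM, against 828 to 3945 CPM in the other HSC libraries and 17.2 to 33.5 CPM in MEP. The values of HSC S211I replicate 2 are therefore given apart throughout, and the fold changes printed for HSC S211I are given with and without it. Counts of genes in the S211I comparisons include it unless stated. The biological coefficient of variation was 0.174 in MEP and 1.6 in HSC. Expression of 9 of the 10 genes could be tested in HSC and between cell types, and of 6 in MEP, where the filter on low counts removed Socs2, Cish and Pim1; it removed Socs3 everywhere. In these bulk libraries, fewer cells of a type and less RNA per cell cannot be told apart.

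The start-site windows of Epor and Cish are shown because the results below turn on the receptor gene and on a classical Stat5 target. Each runs from 250 bases before to 50 bases after the RefSeq transcription start of GRCm38.p6, 5′ to 3′ on the gene's strand. Capitals mark matches to the Stat5 palindrome TTCNNNGAA or to the GATA motif AGATAA, searched on both strands.
Epor chr9:21963527-21963826 (minus strand): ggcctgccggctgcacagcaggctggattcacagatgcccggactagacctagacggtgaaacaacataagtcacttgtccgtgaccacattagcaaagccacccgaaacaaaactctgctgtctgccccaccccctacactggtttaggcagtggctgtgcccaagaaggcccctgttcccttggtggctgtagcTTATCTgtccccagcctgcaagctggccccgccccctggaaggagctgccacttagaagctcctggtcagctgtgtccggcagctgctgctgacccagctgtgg
Cish chr9:107296409-107296708 (plus strand): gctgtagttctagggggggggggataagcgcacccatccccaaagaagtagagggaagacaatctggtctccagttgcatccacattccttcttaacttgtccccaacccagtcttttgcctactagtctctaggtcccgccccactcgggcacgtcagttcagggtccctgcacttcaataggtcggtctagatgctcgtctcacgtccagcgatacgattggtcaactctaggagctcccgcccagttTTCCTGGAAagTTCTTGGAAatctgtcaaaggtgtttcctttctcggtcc
The Cish window held 2 Stat5 palindromes, TTCCTGGAA at the start site and TTCTTGGAA 11 bases after it. The Epor window held a GATA motif, written TTATCT on this strand, 54 bases before the start, and no Stat5 palindrome. RefSeq windows were matched for 9 of the genes, 14 windows in all, and Socs2 had no entry. A Stat5 palindrome also stood in the Socs3 window, TTCTTAGAA at 154 bases before the start, and no other window of these genes held these letters. Across 32851 mouse windows of the same length, 8.3% held the palindrome and 11.2% the GATA motif. Bcl2l1 had a GATA motif in 1 of its windows. The ETS core CCGGAA, the letters that ETS-family proteins bind, stood in 1 window of Bcl2l1 and in 1 of Stat5b and in 14.9% of all windows, and the erythroid KLF1 motif CCACACCC stood in none of theirs and in 3.56% of all. The motifs do not overlap one another in these windows, and a match describes letters and not a bound site.

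**Figure D1:**
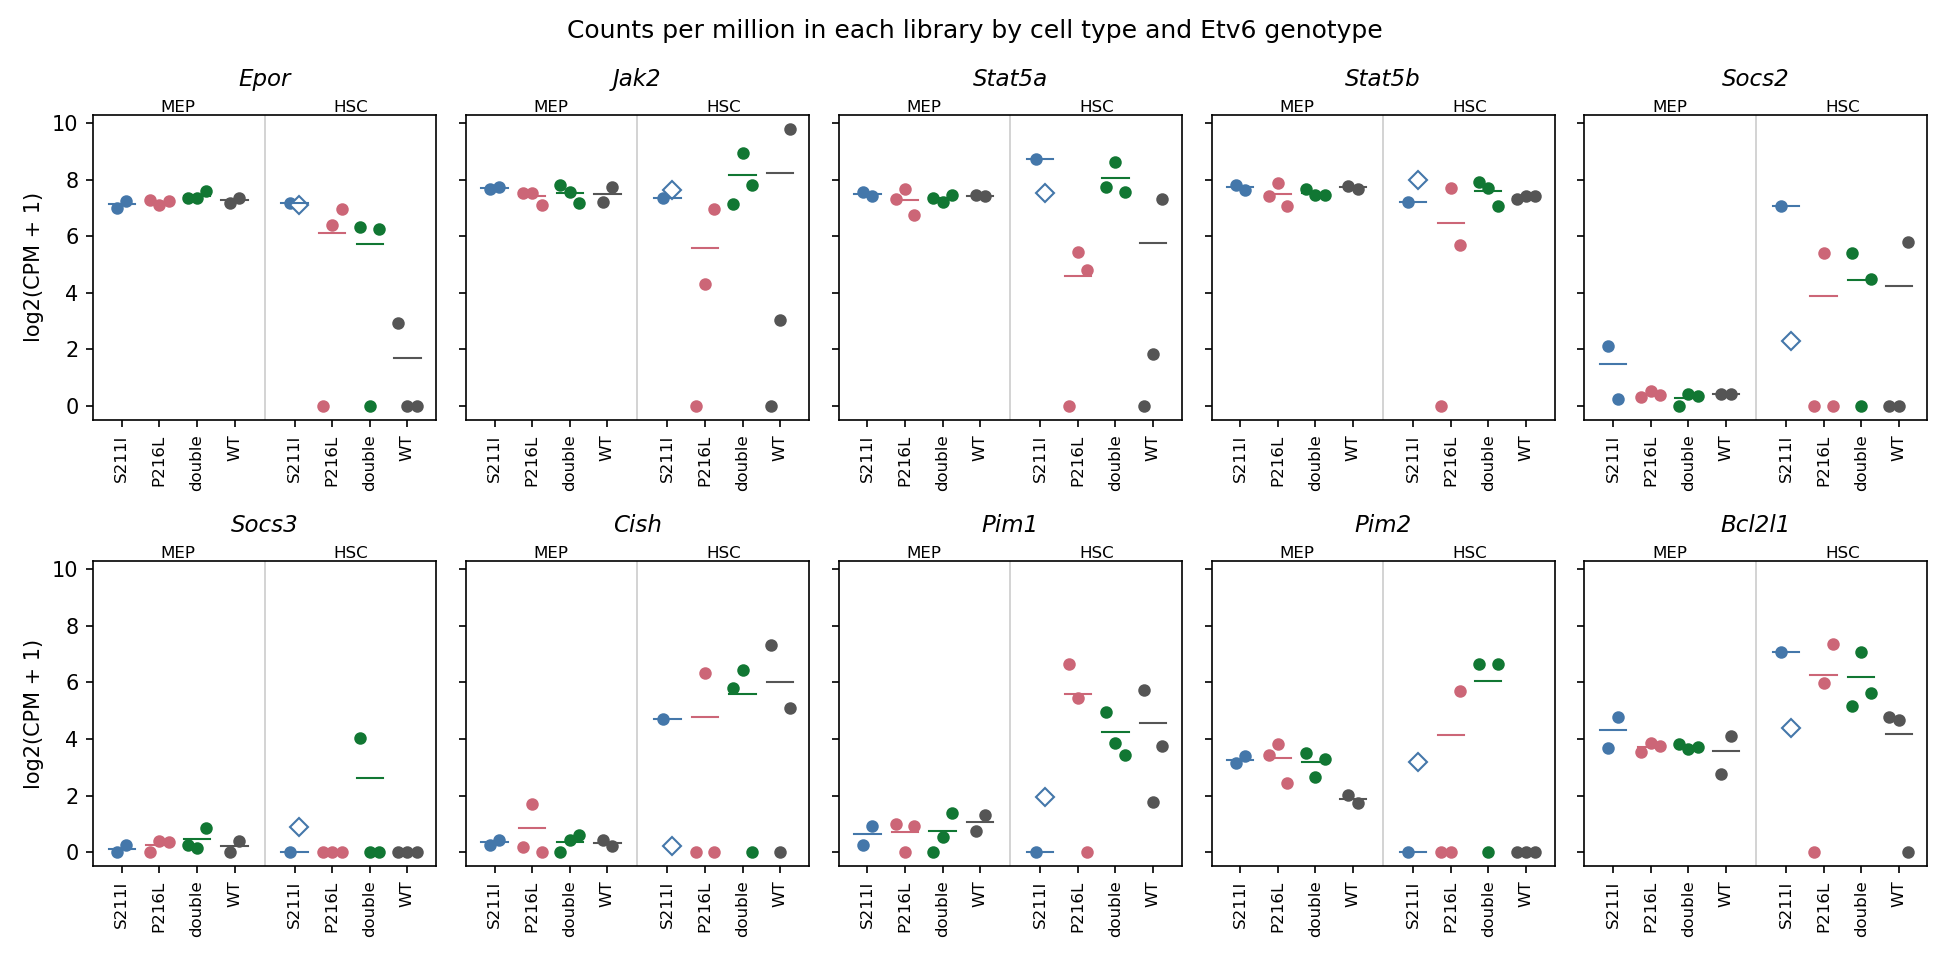
Each point is a library, plotted as log2(CPM + 1) on the vertical axis, with MEP left of HSC and the Etv6 genotypes along the horizontal axis; lines are the group mean CPM on that scale, and the open diamond is HSC S211I replicate 2, left out of the line. Epor lies between 126.6 and 190.8 CPM in every MEP library and at 0 in 4 of the 11 HSC libraries, while Socs2, Cish and Pim1 are near 0 in MEP.

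Between the cell types, the receptor gene was higher in MEP and 3 of its feedback and target genes were lower. MEP were compared with HSC by the mean of the log2 differences within P216L, the double mutant and WT; S211I was left out because of the library that stood apart. Epor rose, Socs2, Cish and Pim1 fell, and Jak2, Stat5a, Stat5b, Pim2 and Bcl2l1 did not pass (edgeR's quasi-likelihood test with Benjamini-Hochberg adjustment over 12036 genes, threshold 0.05). Of all genes tested, 22.2% passed in this comparison, 16.2% higher and 6% lower in MEP, against 1 higher and 3 lower among these 9. Socs2, Cish and Pim1 were too low for the filter within MEP and entered this fit through their HSC counts. A call of these 3 could hardly be other than lower in MEP, so their number is not a result about the axis. The median log2 difference of the 9 was 0.44, or −0.52 without Pim2, whose fitted value depends on the prior count because every WT HSC library held 0; the median of all genes was 0.73. Without HSC S211I replicate 2 the same comparison again called 4, Epor, Socs2, Cish and Pim1. The share of all genes called in that fit is not given here. HSC and MEP share 1 estimate of the spread per gene in this fit, although HSC varied far more.

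**Figure D2:**
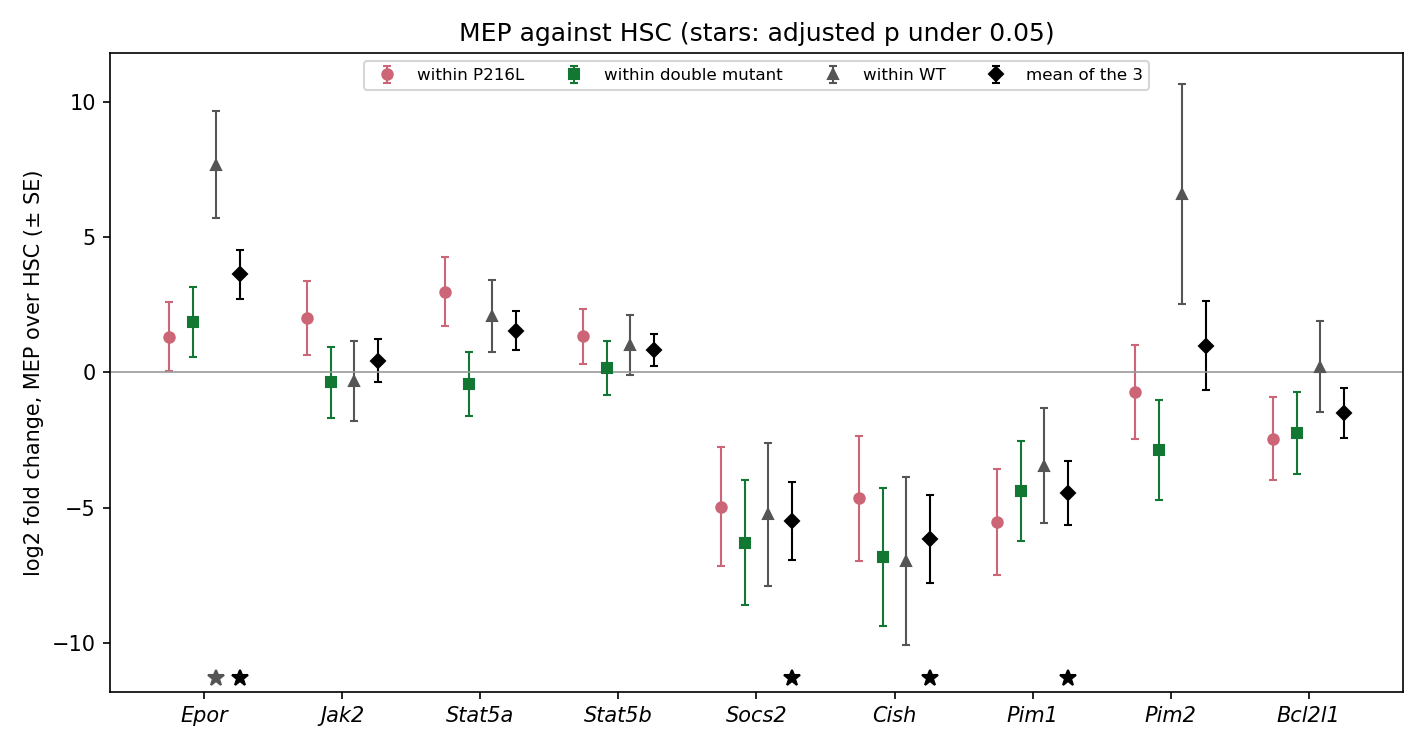
Log2 fold change of MEP over HSC with its standard error for the 9 genes tested (vertical axis), within P216L, the double mutant and WT and as their mean; stars along the bottom mark an adjusted p under 0.05. Epor is starred in WT and in the mean, and Socs2, Cish and Pim1 in the mean.

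Epor, which encodes the receptor for erythropoietin, was present in every MEP library at a steady level. It stood at 126.6 and 152 CPM in S211I, 155, 138 and 151 in P216L, 162.5, 164 and 191 in the double mutant, and 145 and 163.5 in WT, a mean of 155 ± 17.4 CPM (SD, n = 10). The MEP means were 139 ± 18.1 CPM in S211I, 148 ± 8.89 in P216L and 172.5 ± 15.8 in the double mutant, against 154 ± 13.3 in WT (SD). The double mutant ranked highest and S211I lowest, and neighbours in the order overlapped. Its log2 CPM had an SD of 0.167 over the 10 MEP libraries, at the 23.4th percentile of the genes tested, whose median SD was 0.253.

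In HSC, Epor was patchy. It stood at 145 CPM in S211I replicate 1 and 138 in replicate 2, the library that stood apart. The P216L libraries held 0, 83.6 and 122 CPM, the double mutants 80.15, 0 and 75.98, and the WT libraries 6.61, 0 and 0. Every WT library was at or under 1 count, and 2 of the mutant libraries, P216L replicate 1 and double mutant replicate 2, were at 0 as well. At the lowest MEP level, the WT libraries would have held 19.1, 51.9 and 60.8 Epor counts, where 1, 0 and 0 were observed. That level would have given 51.4 counts in P216L replicate 1 and 46.8 in double mutant replicate 2, and neither held any. Epor in these 5 libraries was thus below what the lowest MEP level would give at their total counts. HSC libraries without S211I replicate 2 detected 3988 to 10280 genes, against 12723 to 15914 in MEP, and the expected counts make no allowance for this. P216L replicate 1 held 9 of the 10 genes at 0.

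The Epor difference between cell types was larger than the spread in WT and in the mean over genotypes. Summed over libraries, MEP WT held 2820 Epor counts against 1 in HSC WT, a ratio of 164 in pooled CPM (95% exact binomial interval 29.4 to 6481, for counting error only). The log2 fold change of MEP over HSC was 1.32 ± 1.28 within P216L (SE, adjusted p = 0.66, edgeR) and 1.86 ± 1.30 within the double mutant (adjusted p = 0.60). It was 7.68 ± 1.96 within WT (adjusted p = 0.027) and 3.62 ± 0.90 as their mean (adjusted p = 0.0062). All 8 MEP libraries of these genotypes, at 138 CPM and above, exceeded all 9 HSC libraries, at 122 CPM and below. The share of all genes that separate these libraries was not computed. The S211I libraries, outside this comparison, did not separate: HSC S211I replicate 1, at 145 CPM, lay above MEP S211I replicate 1, at 126.6 CPM, and its 64 Epor counts compare with 56 at the lowest MEP level. Epor was the 1 gene of the 9 that passed within WT, where 4.1% of all genes passed and 3.62% passed as higher in MEP. There 2 of the 9 had an unadjusted p under 0.05, as had 3340 of all 12036 genes (edgeR). None of the 9 passed within P216L (0.0748% of all genes) or the double mutant (0.241%). In each, 3 of the 9 had an unadjusted p under 0.05, as had 2372 and 1960 of all 12036 genes (edgeR). DESeq2 called 1 and 3 of the 9, and its share of all genes there is not given here. The WT call was lost with relative log expression size factors (6.94, adjusted p = 0.055, edgeR), and without HSC WT replicate 2, HSC WT replicate 3, MEP WT replicate 1 or MEP WT replicate 3 (6.94 to 7.91, adjusted p = 0.063 to 0.093). The mean over genotypes passed under all 24 alternatives, at 3.24 to 5.21 (adjusted p = 0.00028 to 0.015).

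**Figure D3:**
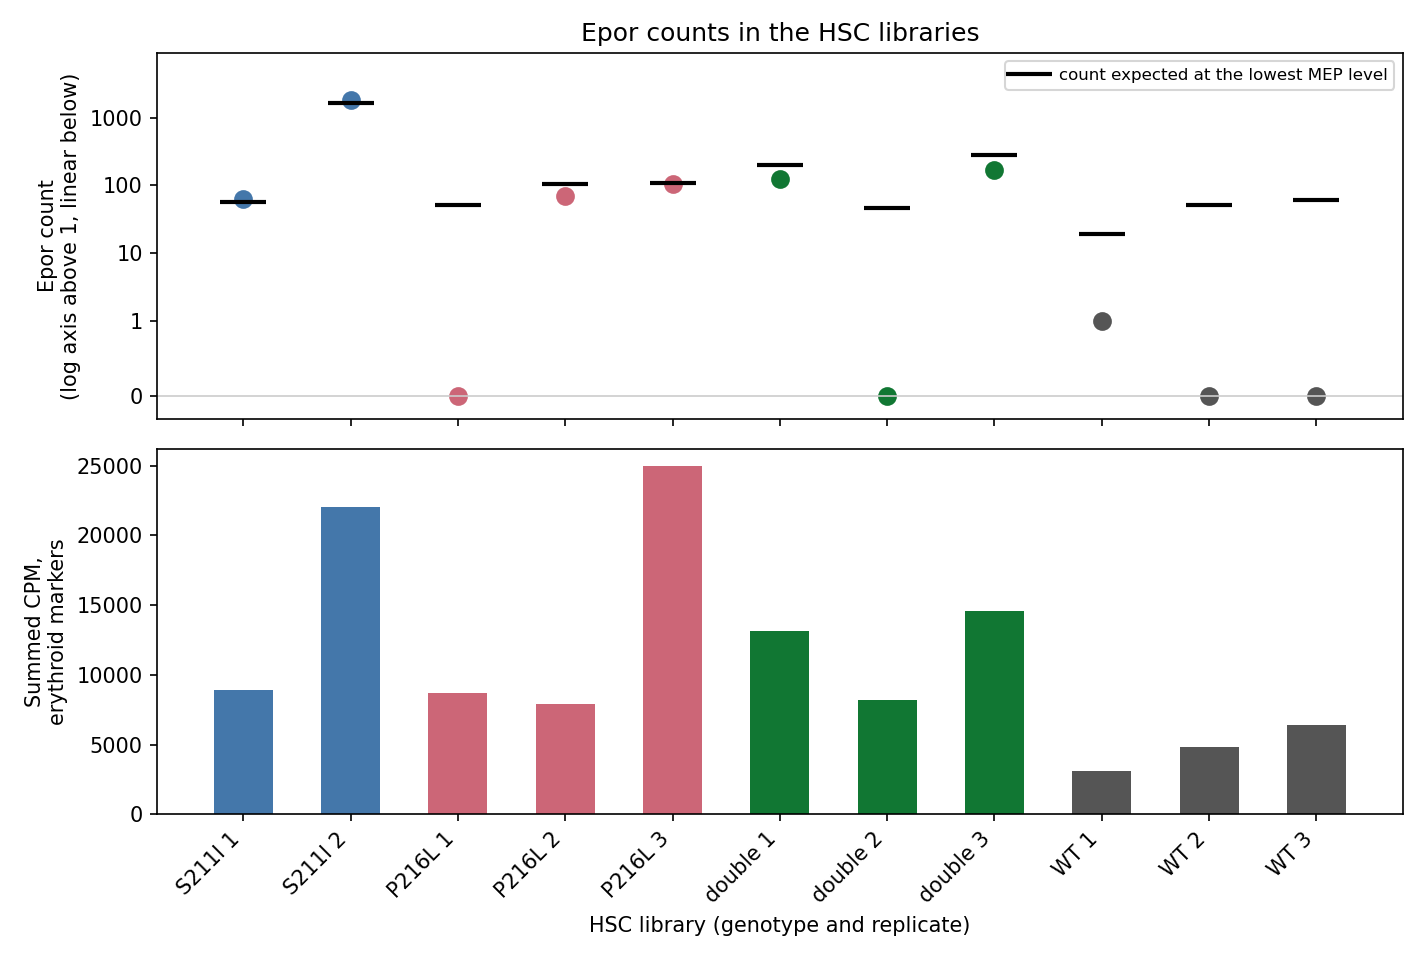
Upper panel, Epor counts in each HSC library (points; log axis above 1, linear below) and the count its depth would give at the lowest MEP level (black bars); lower panel, summed CPM of 11 erythroid markers in the same libraries. Counts are 1, 0 and 0 in WT, where the marker sums are also the lowest, 3099 to 6392 CPM.

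Epor in the mutant HSC groups, libraries at 0 counts included, did not separate from WT by the edgeR test. The log2 fold change over WT was 6.87 ± 3.15 in S211I (SE, adjusted p = 0.60, edgeR over 9471 genes), 5.83 ± 2.97 in P216L (adjusted p = 0.39) and 5.46 ± 2.93 in the double mutant (adjusted p = 0.48), and these 3 comparisons share the WT libraries. Without HSC S211I replicate 2 they were 6.56 ± 3.49, 5.64 ± 3.11 and 5.30 ± 3.07 (adjusted p = 0.91, 0.52 and 0.61, edgeR). In pooled CPM, S211I replicate 1 held 150.9 times the WT level (26.1 to 6051), the P216L libraries 86.6 times (15.3 to 3439) and the double mutants 73.8 times (13.1 to 2924), with intervals for counting error only and a single WT count behind each. Of the 9 genes, 0 passed in any HSC mutant comparison, where 0.0845% of all genes passed in S211I, 0.106% in P216L and 0.0739% in the double mutant. At an unadjusted p under 0.05 stood 772, 1223 and 997 genes, among them 1 of the 9 each. Without Pim2, the median of the others was 1.22 in S211I, −0.52 in P216L and 0.39 in the double mutant, against 0.43, 0.13 and 0.44 for all genes. These S211I counts and medians include replicate 2. Over all 9 genes the S211I median was 1.85 with replicate 2. Without it the median was 0, against −0.03 for all genes. DESeq2 called 0 of the 9, and limma-voom called Epor in S211I (adjusted p = 0.0018). That limma-voom fit included replicate 2 and called 543 of 9471 genes, and it was not repeated without replicate 2. Erythroid markers were higher in the mutant HSC libraries as well: their sum was 8952 CPM in S211I replicate 1, 22030 in replicate 2, 7884 to 24970 in P216L and 8179 to 14600 in the double mutant, against 3099 to 6392 in WT and 21130 to 25920 in MEP. Gata1, Car1, Car2, Rhag, Aqp1, Hbb-bt and Hba-a1 had counts in every HSC library, and 8 to 10 of the 11 markers had counts in each WT library. The red cell membrane gene Epb42 was at 0 in 7 of the HSC libraries. Car1 and Car2 were the largest, at medians of 1160 and 5010 CPM in HSC without S211I replicate 2 and 8560 and 10800 CPM in MEP. The globin genes Hbb-bt and Hba-a1 went the other way, at 337 and 712 CPM in those HSC libraries and 70.3 and 174 CPM in MEP. P216L replicate 1 and double mutant replicate 2 reached sums of 8709 and 8179 CPM with no Epor count. The part of erythroid RNA in the Epor difference was not tested.

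The test of whether a mutant's effect on Epor differed between MEP and HSC did not pass either. The effect in MEP minus the effect in HSC was −7.50 ± 2.56 on the log2 scale for S211I (SE, adjusted p = 0.37, edgeR), −6.36 ± 2.32 for P216L (adjusted p = 0.21) and −5.82 ± 2.32 for the double mutant (adjusted p = 0.25). None of the 9 genes passed in these tests, and of all genes 0% passed for S211I, 0.0997% for P216L and 0.0166% for the double mutant. Epor was under an unadjusted p of 0.05 in all 3, as was Pim2 for the double mutant. Without HSC S211I replicate 2 the S211I value for Epor was −7.10 ± 2.69 (SE, adjusted p = 0.49, edgeR). DESeq2, with HSC S211I replicate 2 included, called Epor for S211I (adjusted p = 0.034) and P216L (adjusted p = 0.042).

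Jak2, the kinase on the receptor tail, overlapped WT in each MEP mutant and scattered widely in HSC. In MEP it stood at 203 and 212 CPM in S211I, 186, 183 and 136 in P216L, 223, 187 and 144 in the double mutant, and 148.5 and 212 in WT. The HSC libraries ranged more widely, with Jak2 at 163 CPM in S211I replicate 1 and 199.6 in replicate 2, at 0, 19.1 and 122 in P216L, at 141, 495 and 226 in the double mutant, and at 0, 7.31 and 895 in WT. The WT libraries thus held both the lowest and the highest value of the HSC set. MEP over HSC gave 0.44 ± 0.79 as the mean log2 difference (SE, adjusted p = 0.78, edgeR). A single library carried that result: without HSC WT replicate 3 the mean was 2.55 ± 0.73 (adjusted p = 0.015), and within WT the value was 5.99 ± 1.68 (adjusted p = 0.039) in place of −0.33 ± 1.48 (adjusted p = 0.92). Jak2 over WT in HSC was −0.62 ± 1.53 in S211I, −2.55 ± 1.42 in P216L and −0.04 ± 1.34 in the double mutant (SE, adjusted p = 1, 0.42 and 1, edgeR). Without S211I replicate 2 the S211I value was −0.996 ± 2.07 (adjusted p = 1).

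Stat5a and Stat5b, neighbouring paralogs whose products carry the signal to the nucleus, could not be fully told apart. In GENCODE vM21 transcripts, 11.5% of the 31-base words of Stat5a also occur in Stat5b and 15.1% of those of Stat5b in Stat5a. All 19 nonzero Stat5a values and 19 of the 20 nonzero Stat5b values were not whole, as happens where reads are divided between transcripts. Their summed level was 242 to 439.5 CPM in MEP, median 367, with 44.3 to 50% of it given to Stat5a. In the 10 HSC libraries without S211I replicate 2 the sum was 0 to 595.5 CPM, median 286, and Stat5a's share ran between 0 and 74.2% where there was any.

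Stat5a stood at 189 and 172 CPM in S211I MEP, 158, 203 and 107 in P216L, 161, 148 and 176 in the double mutant, and 176 and 169 in WT. HSC libraries held Stat5a at 424 CPM in S211I replicate 1 and 182 in replicate 2, at 0, 42.9 and 27.3 in P216L, at 210, 389.5 and 188 in the double mutant, and at 0, 2.60 and 158 in WT. All 3 P216L libraries lay under all 3 double mutants, a comparison that was not fitted here and whose share among all genes was not computed. MEP over HSC gave 1.55 ± 0.72 (SE, adjusted p = 0.12, edgeR), and 3.32 without HSC WT replicate 3 (adjusted p = 0.0029); limma-voom called it higher in MEP (2.22, adjusted p = 0.012). Stat5a over WT in HSC was 2.52 ± 1.82 in S211I, −1.13 ± 1.65 in P216L and 2.31 ± 1.70 in the double mutant (SE, adjusted p = 0.81, 0.96 and 0.77, edgeR). For S211I it was 2.86 ± 2.22 without replicate 2 (adjusted p = 0.91).

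Stat5b was the evenest of the 10 genes in HSC, with a coefficient of variation of 49.3% over the 10 libraries without S211I replicate 2, against 95.1 to 316% for the others. In MEP it stood at 226 and 198 CPM in S211I, 170, 236 and 134 in P216L, 203, 173 and 176 in the double mutant, and 218 and 205 in WT. HSC libraries held Stat5b at 148 CPM in S211I replicate 1 and 253 in replicate 2, at 0, 210 and 50.4 in P216L, at 239, 206 and 132 in the double mutant, and at 159, 170 and 173 in WT. Apart from P216L replicate 1, every HSC library held it, and the cell types overlapped. MEP over HSC gave 0.84 ± 0.60 (SE, adjusted p = 0.35, edgeR), and the changes over WT in HSC ran between −0.69 and 0.60 (adjusted p = 1 in each mutant), with S211I at −0.10 ± 2.45 without replicate 2 (adjusted p = 1). P216L replicate 1 held counts for 1 of the 10 genes, Pim1. Its endothelial and stromal marker sum was 12820 CPM, against 25.9 to 3526 in the other HSC libraries, but only 2 of the 8 markers had counts. The part of such cells in its zeros was not tested.

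The feedback inhibitors were near the detection limit in MEP and scattered in HSC. Cish, which encodes a Stat5-induced SH2 protein that binds cytokine receptors, reached at most 2.27 CPM in MEP, with a median of 0.266. Its HSC values were 24.9 CPM in S211I replicate 1 and 0.152 in replicate 2, 0, 78.8 and 0 in P216L, 55.2, 86.6 and 0 in the double mutant, and 159, 0 and 33.3 in WT. Of the HSC libraries, 4 were at 0, and replicate 2 of S211I lay within the MEP range. Relative to HSC, Cish in MEP fell by 6.14 on the log2 scale as the mean over genotypes (SE 1.63, adjusted p = 0.0093, edgeR). It did not pass within any genotype: −4.65 ± 2.31 in P216L, −6.81 ± 2.56 in the double mutant and −6.97 ± 3.11 in WT (SE, adjusted p = 0.27, 0.15 and 0.15, edgeR).

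Socs2, another Stat5 target and a brake on growth hormone signalling, showed the same contrast. In MEP it reached 3.37 CPM in S211I replicate 1 and at most 0.453 in the other 9 libraries. HSC values of Socs2 were 133.5 CPM in S211I replicate 1 and 3.95 in replicate 2, 0, 41.8 and 0 in P216L, 41.7, 0 and 21.3 in the double mutant, and 0, 0 and 54.1 in WT. Of the 11 HSC libraries, 5 were at 0, so the ranges of the cell types overlapped. Relative to HSC, Socs2 in MEP fell by 5.49 on the log2 scale as the mean over genotypes (SE 1.45, adjusted p = 0.0091, edgeR), and did not pass within P216L, the double mutant or WT (−4.96, −6.28 and −5.24, adjusted p = 0.14 to 0.20).

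These calls rested on few libraries. Markers of neutrophils and monocytes summed to 4.84 to 189.5 CPM in MEP and to 213 to 3994 CPM in HSC. Those of endothelial and stromal cells summed to 3.03 to 15.3 CPM in MEP and to 25.9 to 12820 CPM in HSC. The value of 12820 CPM, in P216L replicate 1, came from 2 of 8 markers. The part of these cell types in the difference was not tested. Without HSC P216L replicate 2, the 1 P216L library with Cish or Socs2 counts, the means were −2.90 for Cish and −2.57 for Socs2 (adjusted p = 0.9999 for both, edgeR), and P216L HSC then held no count of either gene. Without HSC WT replicate 3, Socs2 was −2.51 (adjusted p = 0.9999). Without MEP WT replicate 1 or 3, Socs2, Cish and Pim1 all missed the threshold (adjusted p = 0.063 to 0.090). Across the mutants, Cish over WT in HSC was −2.08 in S211I, −0.88 in P216L and −0.08 in the double mutant, and Socs2 was 1.85, −0.35 and 0.32, with SE of 2.60 to 3.16 and adjusted p = 1 throughout (edgeR). Leaving out S211I replicate 2 gave −1.10 ± 3.97 for Cish and 2.75 ± 3.55 for Socs2 in S211I (SE, adjusted p = 1 and 0.95, edgeR).

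Socs3, which binds Jak2 and shuts off cytokine signals, had 24 counts (15.4 CPM) in HSC double mutant replicate 1 and 0 in the other HSC libraries except S211I replicate 2, at 0.836 CPM. In MEP it lay between 0 and 0.812 CPM. It was too low to test, and in the HSC libraries at 0, where 3 counts are worth up to 19.8 CPM, it was not detectable at this depth. For comparison at the sequence level, Cish and Socs3 are the genes whose windows held the Stat5 palindrome.

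The Pim kinases, which promote survival and growth, are given one by one. Pim1 lay between 0 and 1.62 CPM in MEP. In HSC it stood at 0 CPM in S211I replicate 1 and 2.89 in replicate 2, at 98.5, 43 and 0 in P216L, at 30.1, 13.5 and 9.78 in the double mutant, and at 52.9, 2.44 and 12.5 in WT. In P216L, the double mutant and WT, 8 of the 9 HSC libraries lay above every MEP library, HSC WT replicate 2 with only 1 count. At HSC depth, where 3 counts stand for 1.33 to 19.8 CPM, a few counts are enough for this. The share of all genes in this order was not computed. Relative to HSC, Pim1 in MEP fell by 4.45 on the log2 scale as the mean over genotypes (SE 1.19, adjusted p = 0.00995, edgeR); within P216L, the double mutant and WT it was −5.52, −4.37 and −3.44 (adjusted p = 0.12, 0.21 and 0.30). Among its 31-base words, 11.1% are shared with the predicted gene Gm26885, and reads could be divided with it; 6.54% of those of Cish are shared with Gm17041 and 4.99% of those of Socs2 with Gm9847.

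Pim2 was low in MEP and uneven in HSC. In HSC it stood at 0 CPM in S211I replicate 1 and 8.21 in replicate 2, at 0, 0 and 50.6 in P216L, at 98.8, 0 and 99.1 in the double mutant, and at 0 in all 3 WT libraries. Against a floor of 3 counts over the WT group, the P216L libraries held at least 7.13-fold more and the double mutants at least 31.3-fold more, while S211I replicate 1 gives no fold. These differences did not pass (adjusted p = 0.40 in P216L and 0.47 in the double mutant, edgeR), and MEP against HSC did not pass in any genotype or in the mean. Both double mutants with Pim2 also held Epor, at erythroid marker sums of 13130 and 14600 CPM and neutrophil and monocyte sums of 3994 and 773 CPM. P216L replicate 3 and S211I replicate 2 held both genes as well. P216L replicate 2 and S211I replicate 1 held Epor, at 83.6 and 145 CPM, with Pim2 at 0. No MEP library held Pim2 above 13.3 CPM. The part of these cell types in HSC Pim2 was not tested.

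Bcl2l1, which encodes the survival factor Bcl-xL, stood at 12 and 26.4 CPM in S211I MEP, 10.6, 13.4 and 12.4 in P216L, 13.3, 11.5 and 12.3 in the double mutant, and 5.88 and 16.2 in WT. In HSC it stood at 133.5 CPM in S211I replicate 1 and 20.2 in replicate 2, at 0, 62.1 and 165 in P216L, at 34.6, 133 and 48 in the double mutant, and at 26.5, 24.4 and 0 in WT. All 3 double mutants lay above the WT libraries, with a mean of 71.8 ± 53.2 CPM against 16.9 ± 14.7 CPM in WT (SD, n = 3 each). How many of all genes show this order was not computed. The test did not separate them (2.43 ± 2.45, SE, adjusted p = 0.98, edgeR), and MEP over HSC gave −1.49 ± 0.92 (adjusted p = 0.27), where DESeq2 called it lower in MEP (−1.96, adjusted p = 0.025). S211I over WT in HSC was 2.49 ± 2.60, and 3.19 ± 3.01 without replicate 2 (SE, adjusted p = 0.996 and 0.91, edgeR).

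**Figure D4:**
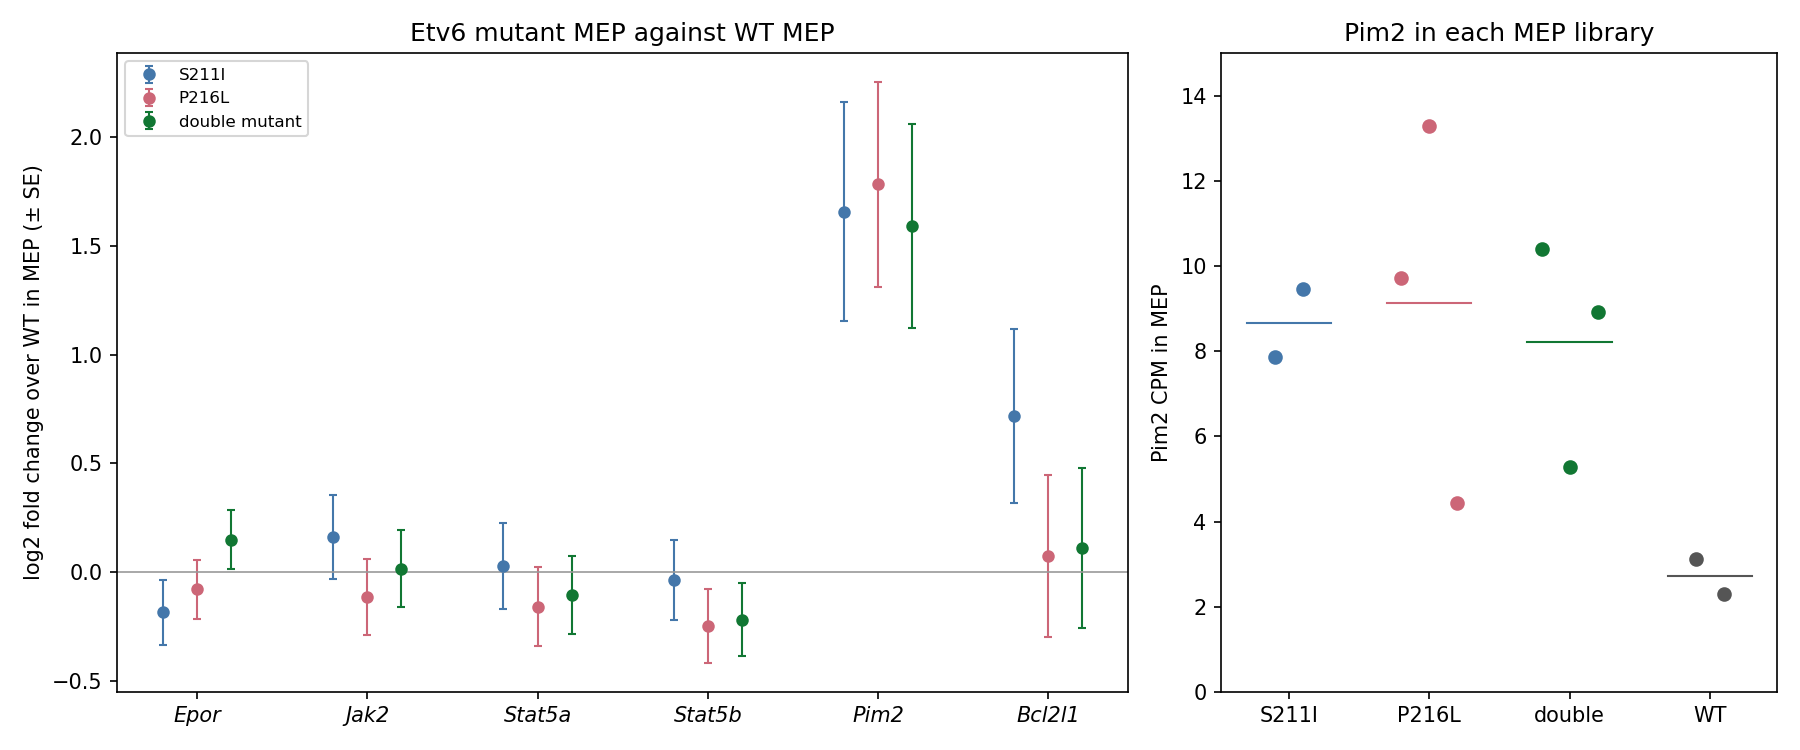
Left, log2 fold change of each Etv6 mutant over WT in MEP with its standard error for the 6 genes tested; right, Pim2 CPM in each MEP library with the group means as lines. Pim2 lies at 4.43 to 13.3 CPM in the 8 mutant libraries, above the WT pair at 2.31 and 3.11 CPM.

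In MEP, where the spread was small, the receptor, kinase and Stat5 genes differed from WT by 0.25 or less on the log2 scale in every mutant. Of the 6 genes tested, 0 passed in any mutant (edgeR over 10773 genes), against 0% of all genes in S211I, 0% in P216L and 0.102% in the double mutant. At an unadjusted p under 0.05 stood 511, 552 and 565 genes, among them Pim2 each time, and DESeq2 and limma-voom also called 0 of the 6. Epor stood at −0.18 ± 0.15 in S211I, −0.08 ± 0.14 in P216L and 0.15 ± 0.14 in the double mutant (log2 fold change ± SE). Jak2 stood at 0.16 ± 0.19, −0.11 ± 0.18 and 0.02 ± 0.18 in the same order, Stat5a at 0.03 ± 0.20, −0.16 ± 0.18 and −0.11 ± 0.18, and Stat5b at −0.04 ± 0.19, −0.25 ± 0.17 and −0.22 ± 0.17. Over the 6 genes the median was 0.09 in S211I, −0.10 in P216L and 0.06 in the double mutant, against 0.004, 0.007 and 0.005 for all genes tested. Bcl2l1 stood at 0.72 ± 0.40, 0.07 ± 0.37 and 0.11 ± 0.37, and in S211I replicate 2 held 26.4 CPM against 12 CPM in replicate 1.

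Pim2 stood above WT in every mutant MEP library. It measured 7.85 and 9.47 CPM in S211I, 9.71, 13.3 and 4.43 in P216L and 10.4, 5.28 and 8.93 in the double mutant, against 3.11 and 2.31 CPM in WT. All 8 mutant libraries exceeded both WT libraries, an order whose share among all genes tested was not computed. Neutrophil and monocyte markers lay the same way, at a sum of 28.2 to 189.5 CPM in the 8 mutant libraries against 4.84 and 20.8 CPM in WT, with 5 to 8 of the 8 markers detected in the mutants and 4 and 7 in WT; their part in the Pim2 difference was not tested. The log2 fold change was 1.66 ± 0.50 in S211I (SE, adjusted p = 0.94, edgeR), 1.78 ± 0.47 in P216L (adjusted p = 0.98) and 1.59 ± 0.47 in the double mutant (adjusted p = 0.53). None passed the adjustment, and the 3 comparisons share the WT pair, so they are not 3 separate observations. Summed counts were 94 in S211I, 180 in P216L and 162 in the double mutant, against 46 in WT. In pooled CPM these are ratios of 3.38 (2.35 to 4.92), 3.91 (2.81 to 5.53) and 3.02 (2.17 to 4.29), with 95% exact binomial intervals for counting error only. Under the 10 alternatives in P216L and the double mutant and the 9 in S211I, Pim2 stayed between 1.35 and 2.08 and passed in none (adjusted p = 0.15 to 1). Over the 10 MEP libraries its log2 CPM had an SD of 0.775, at the 90.7th percentile of the genes tested.

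Beyond these genes, a list of 81 others in cytokine receptor, JAK and STAT, adaptor, inhibitor and target roles was read in the same fits. Between MEP and HSC, 77 could be tested, of which 5 rose and 13 fell (edgeR, mean over genotypes), where 16.2% of all genes passed as higher and 6% as lower in MEP. Their median log2 difference was −0.27, or −0.45 over the 58 with counts in every group, against 0.73 for all genes. Among 14 receptors, 5 fell and none rose. Only 8 receptors could be tested within MEP. The rest entered this fit through HSC counts and could hardly be called higher in MEP. Flt3, a receptor of multipotent progenitors, fell by 4.79 on the log2 scale (edgeR). Il6st, Csf3r and Ghr, receptors for interleukin-6 type cytokines, granulocyte colony-stimulating factor and growth hormone, fell too. They lay near the floor in MEP, at 0 to 1.48, 0 to 2.95 and 0 to 0.66 CPM. Csf2rb, the common beta chain of the interleukin-3 receptor family, lay at 0.208 to 1.96 CPM in MEP and at 0 to 133.2 CPM in HSC, with 6 of the 9 libraries at 0, and did not pass. Kit, the stem cell factor receptor that erythroid progenitors use beside Epor, did not pass (0.09 ± 0.39, adjusted p = 0.97, edgeR), at medians of 671 CPM in MEP and 680 in HSC.

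Among 8 JAK and STAT genes, 2 fell and none rose, where 6% of all genes passed as lower and 16.2% as higher in MEP. Stat4 fell by 4.25, and Jak1 (−0.23 ± 0.33) and Stat3 (−1.90 ± 0.80) did not pass (SE, adjusted p = 0.70 and 0.089, edgeR). Of 19 adaptors, Plcg1, a phospholipase recruited by receptors, fell by 3.05 and none rose. Of 19 inhibitors, Socs6 and Socs7 rose and Ptpn6, the phosphatase that acts on the Epor and Kit receptors, fell by 1.15. Socs6 lay at 46.8 to 62.7 CPM in MEP and at 0 to 112 CPM in HSC, and Socs7 at 4.03 to 9.16 and 0 to 4.89 CPM; every P216L HSC library held 0 of both. Sh2b3, an adaptor that restrains Jak2, did not pass (adjusted p = 0.24).

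Of 17 targets tested, 3 rose and 4 fell, where 16.2% of all genes passed as higher and 6% as lower in MEP. Myc rose by 1.41 ± 0.30 (SE, adjusted p = 0.0027, edgeR), and lay at 639 to 926 CPM in MEP and 85.3 to 806 CPM in HSC. The death genes Bcl2l11 and Bad rose, with 0 counts in every WT HSC library, while Bcl2, the survival gene related to Bcl2l1, fell by 3.56. Serpina3g, a serine protease inhibitor, fell by 6.34, Gfi1 fell by 5.21 and Trib3 fell by 4.07. In MEP, Gfi1 lay at 0 to 1.18 CPM and Trib3 at 0.208 to 1.65 CPM, near the floor. Tfrc, the transferrin receptor, and Mcl1 did not pass (1.495 ± 0.61 and 0.66 ± 0.81, adjusted p = 0.078 and 0.63). In the mutant comparisons, 68 genes of the list were tested in each cell type. None passed in HSC, where 0.0739 to 0.106% of all genes passed. In MEP 1 passed, Ccnd1, the cyclin D1 gene, in the double mutant, where 0.102% of all genes passed. It stood there at 14.3, 21.1 and 24.7 CPM, against 3.98 and 2.10 CPM in WT (2.76 ± 0.47, SE, adjusted p = 0.015, edgeR). Ccnd1 stood at 3.31 and 10.5 CPM in S211I MEP and at 6.98, 5.40 and 3.69 CPM in P216L MEP, where it did not pass (adjusted p = 0.94 and 0.98). The median over the 68 in MEP was 0.17 in S211I, 0.002 in P216L and −0.002 in the double mutant. None of 77 passed in the tests of a mutant's effect between cell types, where 0 to 0.0997% of all genes passed.

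Over the 10 MEP libraries, the genes whose log2 CPM followed Epor most closely among 10773 were Ruvbl2, Emc10, Tbrg4, Nop9 and Dph1. Their Pearson correlations with Epor were 0.913, 0.91, 0.901, 0.895 and 0.889, and their Spearman correlations 0.891, 0.855, 0.842, 0.83 and 0.879. These were picked as the highest of all genes and are a description of these libraries, which differ in genotype and depth. None of the other genes of the axis was among them.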

How the data were processed

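The authors deposited estimated counts, 1 row per Entrez gene and 1 column per library. Per the submitters' processing notes, FastQC, Salmon and GRCm39 were used, with versions not given in the sources used here. Nonzero values that were not whole made up 6.09 to 33.07% of a library, and counts were rounded for testing. Symbols came from RefSeq names of GRCm38.p6 and matched 30211 of 30519 rows; the other 308 rows held 0.0442% of the counts and stayed in the library sizes. CPM are counts over the library total. Samples were grouped by title. The 10 genes, the lists and the markers were chosen with earlier results of these data known.

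HSC, MEP and a joint fit of all 21 libraries tested 9471, 10773 and 12036 genes in 13 comparisons with edgeR 4.0.16 in R 4.3.3 (quasi-likelihood, robust, TMM size factors, filterByExpr at 10 counts and a total of 15, adjusted p under 0.05 by Benjamini-Hochberg). SE is the absolute log2 fold change over the square root of F. Pairs of libraries in a group differed beyond sampling noise (chi-square per degree of freedom 4.63 to 88.3 over 18 pairs), so none was counted as a copy. The text names all 10 genes, list genes that passed (a few are not reported here), further list genes, and the 5 genes most correlated with Epor in MEP. Ccnd1 and the other list genes were fitted without alternatives. The tests were tried on simulated data. The alternatives tried were size factors by relative log expression (RLE), no filter, the replicate number as a block, limma-voom 3.58.1 with quality weights, DESeq2 1.42.0, each library left out, and, added after seeing the data, a fit without the 3 HSC libraries nearest to MEP. RefSeq windows on chromosome 18 were not used.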

Additional observations from a re-analysis of the deposited data

How the results depend on the processing

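For the 9 genes, 108 fold changes and their counts of calls were recomputed under the alternatives, giving 1524 and 179 values; 1386 of the fold changes kept their direction and side of the threshold, and 163 of the counts stayed within 1.5 times the count reported. Of the other fold changes, 107 changed sign without a call in either fit, 14 lost a call and 16 gained one, and 1 reversed: Jak2 in MEP over HSC within WT, at −0.33, ran between −0.91 and 5.99 with a library left out, the upper value without HSC WT replicate 3, where 1 library of 895 CPM is missing by construction. Counts of the 9 called moved as follows. MEP against HSC within WT called 1, and 0 with RLE, 2 with limma-voom, 3 with DESeq2 and 0 to 2 with a library left out. Within P216L it called 0, and 1 with DESeq2 and 1 without the 3 HSC libraries nearest to MEP (Pim1). Within the double mutant it called 0, and 3 with DESeq2. The DESeq2 share of all genes within P216L and the double mutant is not given here. The mean over genotypes called 4, 5 with limma-voom (Stat5a added), 5 with DESeq2 (Bcl2l1 added), and 1 to 5 with a library left out: 1 without MEP WT replicate 1 or 3, 2 without HSC P216L replicate 2 and 5 without HSC WT replicate 3. HSC S211I against WT called 0, and 1 with limma-voom. The effects of P216L and of S211I between cell types called 0, and 1 each with DESeq2. The cause of these moves was not tested. Shares of all genes are not given here for the fits with libraries left out, nor for these effects with DESeq2. RLE moved the median of all genes by −0.731 within WT and −0.419 in the mean, and the mean called 4 of the 9 with it. Over all genes, calls within WT were 493, and 266 with RLE, 1864 with limma-voom and 2122 with DESeq2; for the mean they were 2668, 2096, 5309 and 3148; in HSC P216L they were 10, 18, 36 and 300, in HSC S211I 8, 5, 543 and 97, and in the HSC double mutant 7, 6, 176 and 178.

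Libraries with the same replicate number did not consistently deviate together (r = −0.0665 to 0.0927 over 37 pairs across cell types, −0.119 to 0.0407 over 12 within MEP and −0.0613 to 0.224 over 15 within HSC, of which 1 was over 0.1), so the libraries were taken to share only a number. With the replicate number as a block, 1 of the 9 was called within WT, 4 in the mean and 0 in the other comparisons, the same counts as without it. The share of all genes called with the block is not given here. HSC depth is a limit: 3 counts stand for up to 19.8 CPM there.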
